A study of Mus musculus with 18 samples.

Results

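The collagen genes of mice were followed in jaw tissue from the site of a mandibular first molar extraction. They were taken as the protein-coding genes whose symbols consist of Col, a type number, the letter a and a chain number. This rule, which uses no measured value, found 44 of the 54532 genes in the table. RNA was sequenced from a control arm and a periodontitis arm, sampled at 0 d, 3 d and 7 d of an extraction model. Each of the 6 groups had 3 biological replicates, which gave 18 libraries. The labels enter the arms as genotypes, Control and periodontitis, and the extraction model was made in both arms, so no arm is without extraction. The sources used here do not give the strain, the age, the way periodontitis was induced or whether animals were pooled. The labels give the tissue as the first molar and the study title names the socket, so the parts of the jaw collected are not known.

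Collagens are proteins built of triple helices, and their chains are encoded by separate genes. Fibrillar collagens form the fibrils of bone, dentine, ligament and cartilage, and collagens of the FACIT class sit on the surface of such fibrils. Others build networks in basement membranes, beaded filaments around cells, or anchors for epithelium. Type I collagen is the main protein of alveolar bone and, with type III, of the periodontal ligament. An extraction socket fills with clot, then with soft wound tissue, then with woven bone.

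Values are CPM, counts scaled to a common library size after TMM, a method that evens out composition between libraries. Differences are log2 fold changes ± SE, and p-values come from the quasi-likelihood test of edgeR, adjusted after Benjamini and Hochberg for the 18697 genes tested. A gene is called where the adjusted p is under 0.05. Of the 44 collagens, 42 passed the filter on low counts. Col4a6, a basement membrane chain, lay between 0 and 1.502 CPM and was not tested. Col19a1, a FACIT chain, lay between 0 and 0.277 CPM, at most 5 counts in a library, and was not tested either.

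The libraries held 14139830 to 17763605 counts, and 7.92% to 18.5% of these came from collagen genes. The smallest share was in control 0 d replicate 3 and the largest in control 7 d replicate 1. Markers of osteoblasts were abundant everywhere, with a summed level of 5017 to 12530 CPM, but single markers differed. At 0 d, 1 of 6 was called higher and 2 lower in periodontitis (4.81% and 3.47% of all genes). Dmp1 was at 5483, 4207 and 3841 CPM in control 0 d and at 1897, 2518 and 2125 CPM in periodontitis 0 d. Ibsp was at 3627, 3151 and 3059 CPM and at 5252, 6067 and 4805 CPM. From 0 d to 3 d in control, 1 rose and 2 fell (16.4% and 18.3% of all genes). Markers of autonomic ganglion neurons set 5 libraries apart. The neuropeptide gene Vip lay between 213 and 753 CPM in replicate 2 of control 3 d, in replicates 1 and 3 of periodontitis 0 d and in replicates 1 and 2 of periodontitis 3 d, and elsewhere at most at 20.6 CPM. Skeletal muscle markers reached a summed 1398 CPM in periodontitis 0 d replicate 3 and 374 CPM in replicate 2. Markers of ameloblasts and odontoblasts summed to 17.3 to 652 CPM at 0 d in control and to 1.202 to 6.37 CPM in periodontitis, and the 3 of these 5 genes that were tested were all called lower. In bulk tissue, fewer cells of a type and less RNA per cell cannot be told apart.

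The 3 most abundant chains per length were Col1a1, Col1a2 and Col3a1, in that order in every group. Col1a1 lay between 4140 and 12390 CPM per kilobase of exon, Col1a2 between 2060 and 4904 and Col3a1 between 667 and 2653 CPM per kilobase. These 3 genes took 83.1% to 85.7% of all collagen counts of a library. Next came Col6a1 (157 to 539), Col11a2 (197 to 563), Col5a2 (164 to 411) and Col5a1 (124 to 415 CPM per kilobase), whose ranges overlap. By mean CPM, 12 collagens were above 1000 CPM, 10 between 100 and 1000, 7 between 10 and 100, 11 between 1 and 10, and 4 below 1 CPM. The 4 lowest were Col4a3, Col4a6, Col6a6 and Col19a1.

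**Figure D1:**
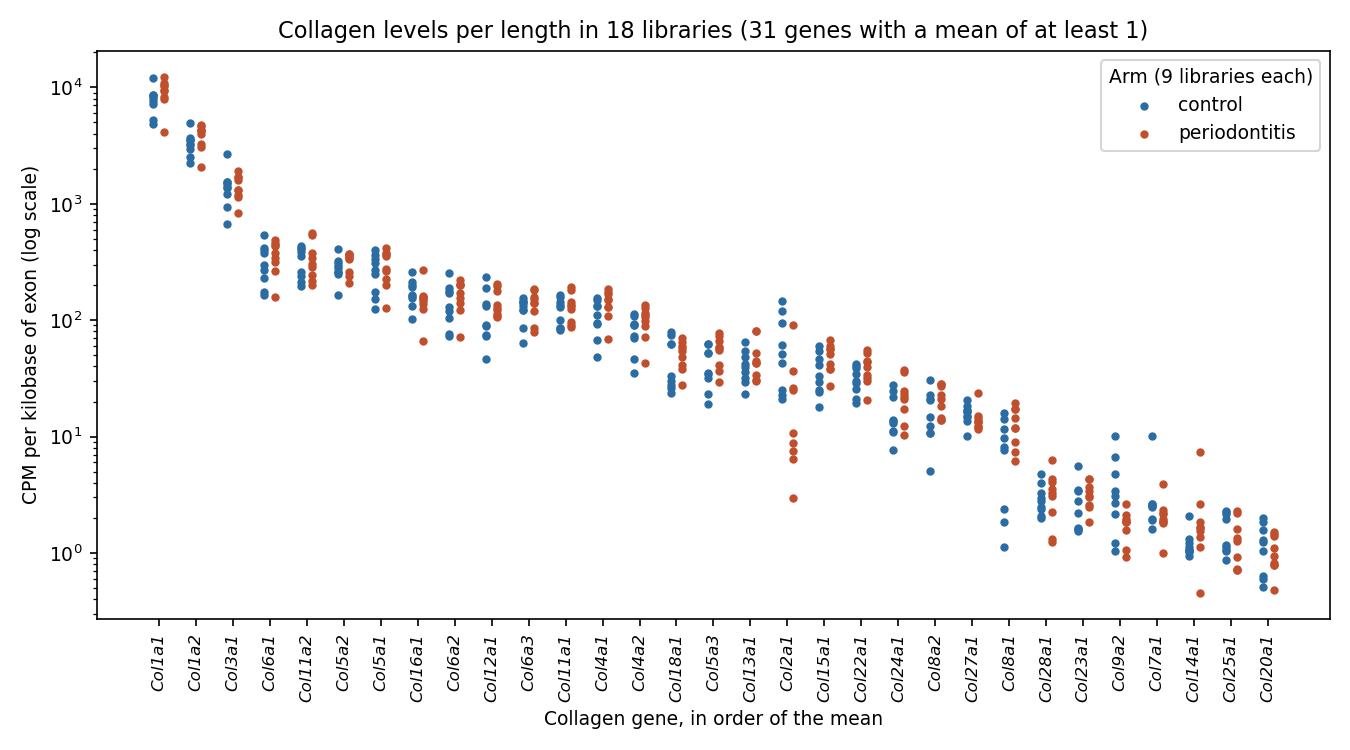
Level per length (CPM per kilobase of exon, log scale) of the 31 collagens with a mean of at least 1, in order of the mean; each point is 1 library, blue for the 9 control and red for the 9 periodontitis libraries. The 3 chains of types I and III stand above the rest, and Col2a1, between 2.98 and 145 CPM per kilobase, has a wide spread.

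Between arms, collagen genes were called at 0 d and at no later day. At 0 d, 4 of 42 were higher in periodontitis, against 4.81% of all genes tested, and 2 were lower, against 3.47%. Together these were 14.3% of the collagens, against 8.27% of all genes. Higher were Col4a5, Col8a1, Col9a1 and Col14a1, and lower were Col2a1 and Col25a1. The median log2 fold change was 0.43 over the 42 collagens and -0.02 over all genes.

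At 3 d, edgeR called 0 of 42 collagens, against 0.134% of all genes. At 7 d it called 0, against 0% of all genes. Without adjustment, 5 of 42 collagens had p under 0.05 at 3 d and 4 at 7 d, against 1544 and 1188 of all 18697 genes. DESeq2 called 2 collagens at 3 d, Col2a1 among them, and 1 at 7 d, against 291 and 110 of all genes. The medians of the collagens were 0.22 at 3 d and -0.07 at 7 d. At 3 d the CPM of the arms did not overlap for 20 of the 42, 16 higher and 4 lower in periodontitis, against 20.4% of all genes. At 0 d this held for 18, of which 16 were higher (28% of all genes), and at 7 d for 5, of which 4 were lower (10.3% of all genes).

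Averaged over the 3 days, 5 collagens (11.9%) differed between arms, against 4.67% of all genes, with 2.01% higher and 2.66% lower. Col8a1 (0.98 ± 0.16), Col9a1 (1.14 ± 0.22) and Col24a1 (0.50 ± 0.13) were higher in periodontitis, and Col2a1 (-1.59 ± 0.32) and Col9a2 (-0.90 ± 0.24) were lower. Their adjusted p-values were 0.00279, 0.00964, 0.0443, 0.0111 and 0.0470. When each of the 18 libraries was left out in turn, Col24a1 and Col9a2 each kept the call in 4 of 18 fits. Leaving out the 5 libraries with Vip above 100 CPM leaves 1 library in periodontitis 0 d and 1 in periodontitis 3 d. In that fit these collagen calls, and those at 0 d, were lost. The number of all genes called fell in both comparisons too, and whether collagens lost more was not tested. A lone library is taken there to vary like the other groups.

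**Figure D2:**
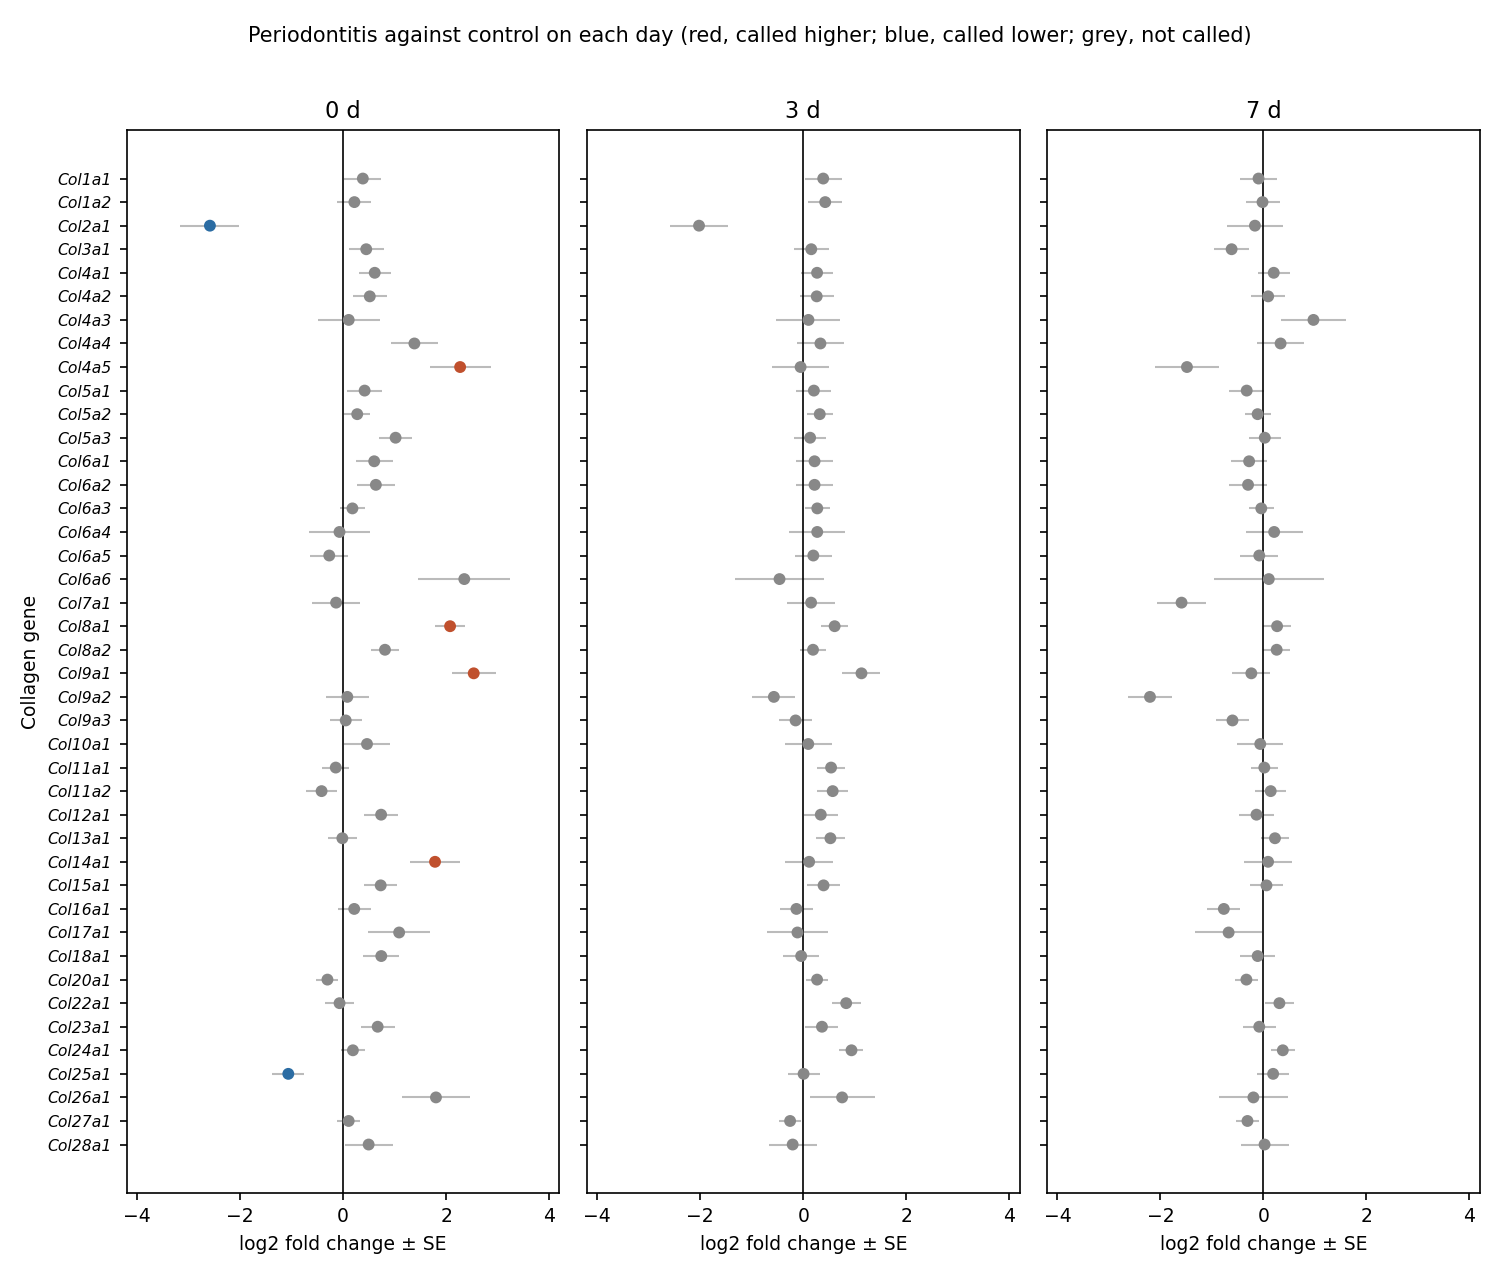
Log2 fold change ± SE of periodontitis against control at 0 d, 3 d and 7 d for the 42 collagens tested (3 libraries per group); red marks genes called higher, blue genes called lower and grey genes not called. The 6 coloured points are all at 0 d, and Col2a1 lies at -2.59 at 0 d and at -2.02 at 3 d.

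Changes with time were called less often among collagens than among all genes in 5 of 6 comparisons, a description of the shares with no test. In control, 6 collagens rose (16.4% of all genes did) and 4 fell (18.3%) from 0 d to 3 d, together 23.8% of the collagens against 34.7% of all genes. From 3 d to 7 d in control, 3 rose (4.99% of all genes) and 0 fell (5.87%), 7.14% against 10.9%. From 0 d to 7 d in control, 7 rose (20%) and 1 fell (21.4%), 19% against 41.3%. Col8a1, Col8a2 and Col9a1 were among the genes that rose over both spans from 0 d. In periodontitis, 4 rose (9.02%) and 3 fell (12.2%) from 0 d to 3 d, 16.7% against 21.2%. From 3 d to 7 d in periodontitis, 1 rose (2.17%) and 2 fell (2.63%), 7.14% against 4.8%. From 0 d to 7 d in periodontitis, 4 rose (18.3%) and 8 fell (20.7%), 28.6% against 39%. Across the 12 comparisons 21 collagens were called at least once and 21 never. Of the 54 calls of a gene in a comparison, 20 held when each library was left out in turn. Neither share was computed over all genes, of which up to 41.3% were called in a single comparison. Types I and III, Col5a1, Col5a2, Col6a1, Col6a2, Col11a1, Col11a2, Col16a1, Col4a1 and Col4a2 were among the 21 never called.

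The medians of the time changes from 0 d to 7 d were 0.22 in control and -0.34 in periodontitis. The difference between arms of the change itself was tested as an interaction. From 0 d to 7 d, edgeR called 0 collagens (0.0428% of all genes) and DESeq2 called 4 (712 of all genes). Without adjustment 12 collagens passed 0.05 (2990 of all 18697 genes), and 10 of the 12 were negative. From 0 d to 3 d, edgeR called 0 (0.016% of all genes) and DESeq2 called 1 (223 of all genes). There 9 collagens passed 0.05 without adjustment (2228 of all 18697 genes). Among collagens the lowest adjusted p was that of Col9a1 from 0 d to 7 d, with an interaction of -2.77 ± 0.57 (adjusted p = 0.0791). The 0 d libraries enter both the arm difference at 0 d and the changes from 0 d, so these comparisons share samples.

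**Figure D3:**
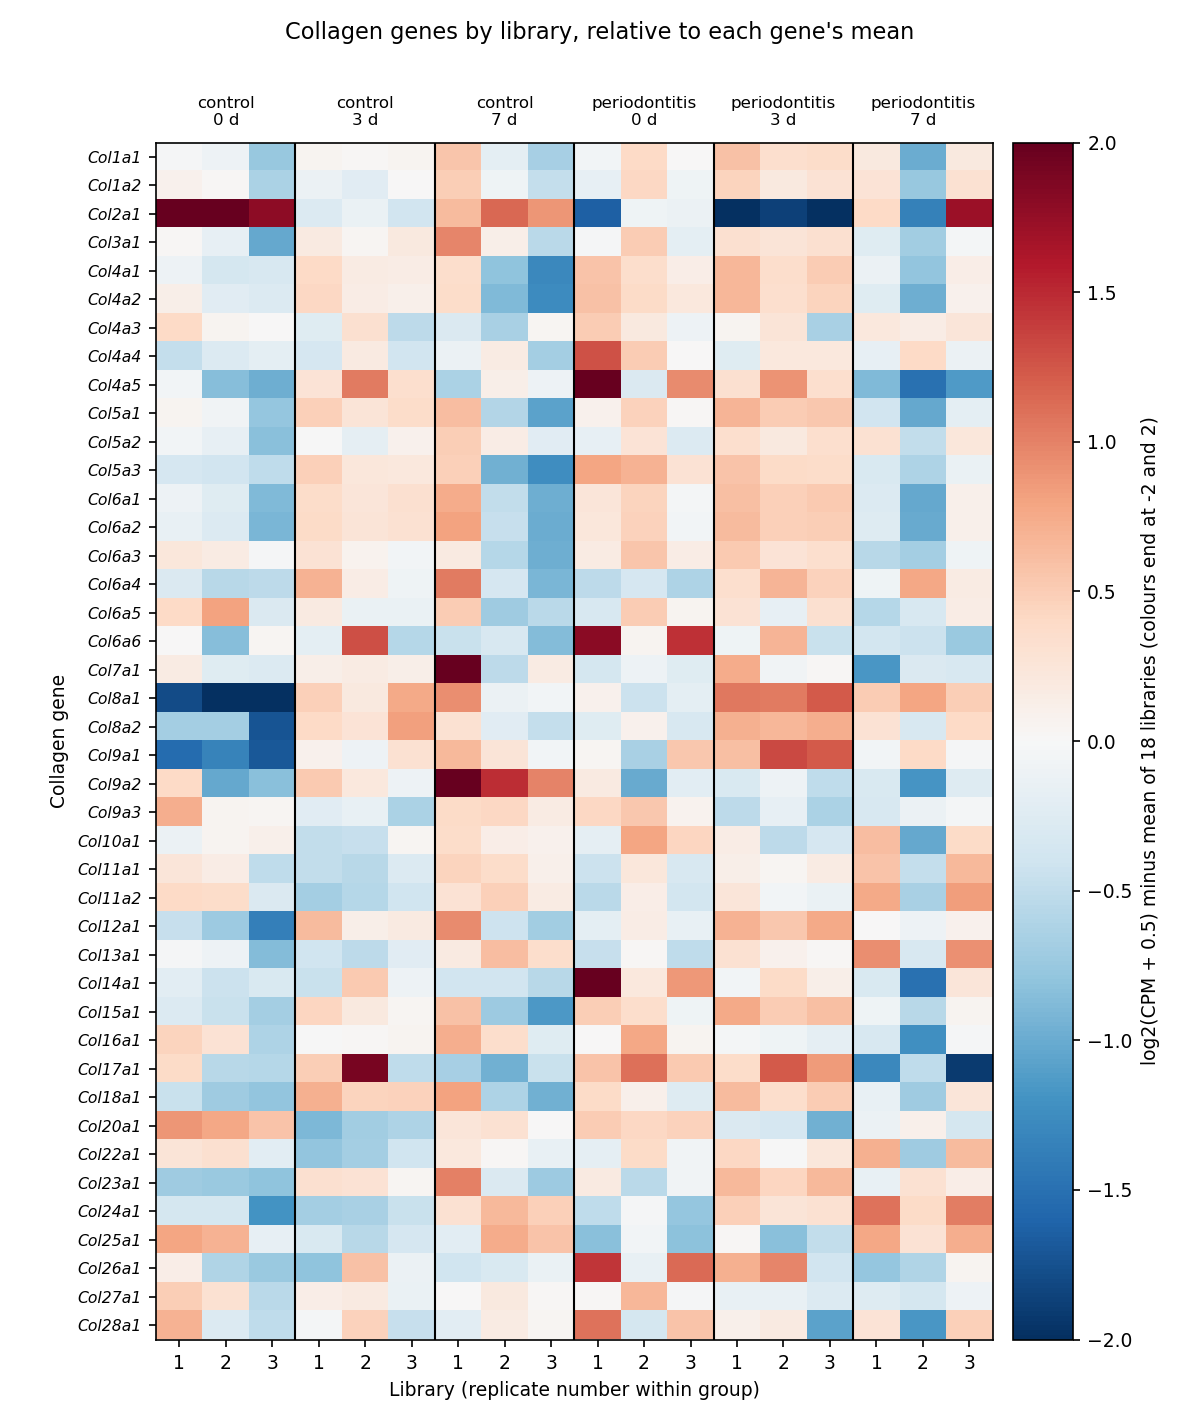
Log2 of CPM plus 0.5 of the 42 collagens tested, minus the mean of that gene over the 18 libraries (colours end at -2 and 2), with 3 libraries per group in columns. Col8a1, Col8a2 and Col9a1 are low in control 0 d, Col2a1 is high there, and many genes are low in periodontitis 7 d replicate 2.

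Type I collagen is a trimer of chains from Col1a1 and Col1a2. Col1a1 was at 53050, 50580 and 32100 CPM in control 0 d, 56010, 55100 and 56200 in control 3 d, and 79660, 47070 and 34160 in control 7 d. In periodontitis it was at 51890, 70960 and 54200 CPM at 0 d, 81320, 68030 and 69480 at 3 d, and 61900, 27170 and 61600 at 7 d. The arms overlapped at 0 d and 7 d. At 3 d all 3 periodontitis libraries were above all 3 control libraries, with a log2 fold change of 0.39 ± 0.36 that was not called (adjusted p = 0.940). Control 7 d replicate 1 had the highest and periodontitis 7 d replicate 2 the lowest Col1a1 CPM of the 7 d libraries. Without either, 0 collagens were called between arms at 7 d. Collagen genes took 18.5%, 12.8% and 9.86% of the counts in control 7 d and 14.9%, 7.99% and 15.4% in periodontitis 7 d. With this spread inside the groups, 0 calls at 7 d do not show that the arms were alike.

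The 2 chains of type I did not keep one ratio. In counts, Col1a1 to Col1a2 was 1.15 ± 0.00200 (SD, n = 3) in control 0 d, 1.40 ± 0.102 in control 3 d and 1.19 ± 0.109 in control 7 d. In periodontitis it was 1.30 ± 0.0626, 1.35 ± 0.0360 and 1.13 ± 0.0641 on the same days. Over the 18 libraries it ran from 1.06 to 1.495, with the 3 control 0 d libraries nearly equal.

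Type III collagen, a homotrimer of Col3a1 that is known for early wound tissue, was set against type I by the ratio of Col3a1 to Col1a1 counts, which does not depend on scaling. In control it was 0.255, 0.234 and 0.204 at 0 d, 0.268, 0.249 and 0.271 at 3 d, and 0.327, 0.306 and 0.267 at 7 d. In periodontitis it was 0.251, 0.266 and 0.214 at 0 d, 0.204, 0.232 and 0.238 at 3 d, and 0.182, 0.302 and 0.209 at 7 d. At 3 d the 3 periodontitis libraries were below the 3 control libraries, whereas at 0 d and 7 d the arms overlapped. Over the days, periodontitis minus control was -0.19 on the log2 scale (two-sided exact permutation within days, p = 0.0955, adjusted over 4 comparisons 0.382, smallest possible p = 0.00025). The changes between days, permuted within arms, were 0.04 from 0 d to 3 d (exact permutation p = 0.680), 0.10 from 3 d to 7 d (p = 0.450) and 0.14 from 0 d to 7 d (p = 0.380), with 0.005 the smallest p possible. These values pool the arms. Taken by arm, the change from 0 d to 3 d was 0.19 in control and -0.12 in periodontitis, and from 0 d to 7 d it was 0.38 and -0.11, a difference between arms that was not tested. From 3 d to 7 d it was 0.19 in control and 0.01 in periodontitis. Without periodontitis 7 d replicate 2, whose ratio of 0.302 was the highest of its group, the pooled change was 0.03 from 0 d to 7 d and -0.01 from 3 d to 7 d. The pooled change from 0 d to 3 d was -0.01 without control 0 d replicate 3 and -0.01 without periodontitis 0 d replicate 3.

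**Figure D4:**
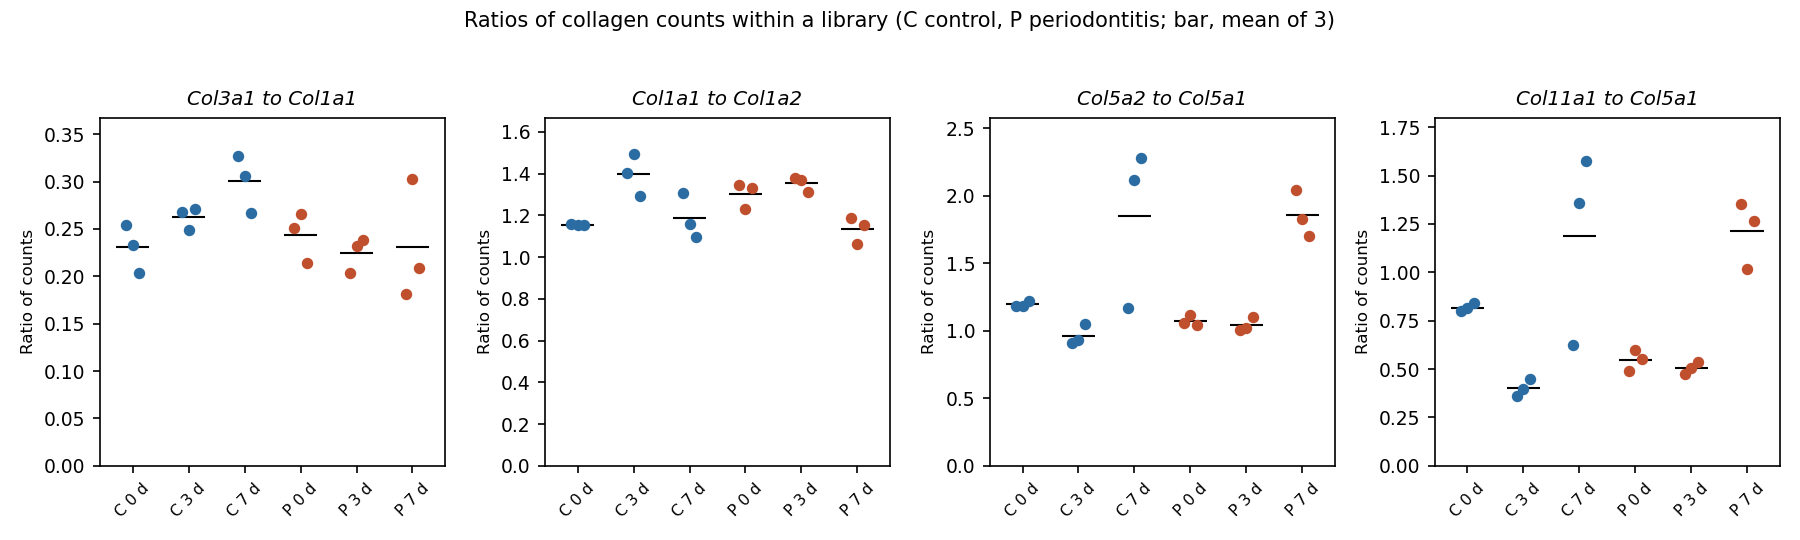
Ratios of counts of 2 collagen genes within a library (no unit, axes start at 0), by group, with points for the 3 libraries and a bar at their mean. Col3a1 to Col1a1 lies between 0.182 and 0.327, and the ratios of Col5a2 and Col11a1 to Col5a1 are highest at 7 d, except in control 7 d replicate 1.

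Types V and XI are minor fibrillar collagens that start and limit the growth of type I and type II fibrils. Of the 5 genes named for these types, Col5a3 alone was called. It fell by 0.95 ± 0.31 on the log2 scale from 0 d to 7 d in periodontitis (adjusted p = 0.0265), from 465 ± 81.1 to 241 ± 39.5 CPM. The call was kept in 14 of 18 fits that each left out 1 library. Col11a2 was at 2827, 2781 and 1755 CPM in control 0 d, 1344, 1455 and 1641 in control 3 d, and 2644, 2982 and 2422 in control 7 d. Its control libraries of 3 d were thus below those of 0 d and 7 d, with a log2 fold change of -0.73 ± 0.31 from 0 d to 3 d that was not called (adjusted p = 0.0769). Chains of the 2 types shifted against each other, a pattern chosen after its values were seen and therefore given without a test. Col5a2 to Col5a1 in counts was 1.196 ± 0.0203 and 0.965 ± 0.0741 in control at 0 d and 3 d and 1.07 ± 0.0420 and 1.04 ± 0.0524 in periodontitis. At 7 d it was 2.05, 1.83 and 1.70 in periodontitis and 1.17, 2.12 and 2.28 in control, so that 5 of 6 libraries were above all others and control 7 d replicate 1 was not. Col11a1 to Col5a1 was 0.818 ± 0.0194, 0.402 ± 0.0462 and 1.19 ± 0.497 in control and 0.548 ± 0.0560, 0.507 ± 0.0315 and 1.21 ± 0.174 in periodontitis at the 3 days.

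Col2a1 encodes the type II collagen of cartilage fibrils (GRCm38 chr15:97975602-98004695, minus strand). It was at 1118, 1342 and 881 CPM in control 0 d and at 81.8, 241 and 234 CPM in periodontitis 0 d. All control libraries were above all periodontitis libraries, and Col2a1 was lower in periodontitis by -2.59 ± 0.57 (adjusted p = 0.0182). The adjusted p was 0.0618 without control 0 d replicate 2 and 0.0913 without periodontitis 0 d replicate 1, and with ganglion neuron markers as a covariate the difference was -2.38 (adjusted p = 0.118). In a fit of the 2 groups alone it was -2.55 (adjusted p = 0.0649). Without the libraries with Vip above 100 CPM it was -2.18 (adjusted p = 0.429).

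In control, Col2a1 fell to 210, 232 and 196 CPM at 3 d (-2.39 ± 0.57, adjusted p = 0.00412) and was at 393, 565 and 469 CPM at 7 d. In periodontitis it fell to 27.6, 69.4 and 59.8 CPM at 3 d (-1.83 ± 0.56, adjusted p = 0.0299) and was at 337, 99.3 and 837 CPM at 7 d. From 3 d to 7 d in periodontitis it rose by 3.02 ± 0.59 (adjusted p = 0.0145), a call lost without replicate 1 or replicate 2 of periodontitis 3 d. The 7 d libraries of periodontitis thus spanned the whole range of control 7 d and beyond. At 3 d the arms did not overlap, and the difference of -2.02 ± 0.57 missed the threshold (adjusted p = 0.198). It passed with DESeq2 (-2.01, adjusted p = 0.0461), in a fit of the 2 groups alone (-2.02, adjusted p = 0.0491) and with no filter on low counts (-2.02, adjusted p = 0.0476).

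Markers of cartilage are given beside Col2a1. Of 8 chondrocyte markers, 6 were tested, and 1 of these, Matn3, which encodes a cartilage matrix adaptor, was higher in periodontitis at 0 d (1.98 ± 0.53, adjusted p = 0.0365) and 0 were lower (4.81% and 3.47% of all genes). Of the 6, 1 rose and 1 fell from 0 d to 3 d in each arm (16.4% and 18.3% of all genes in control, 9.02% and 12.2% in periodontitis). Matn3 rose, and Sox9, the transcription factor of chondrocytes, fell from 36.3, 26.1 and 16.4 to 10.03, 10.3 and 10.7 CPM in control (-1.34 ± 0.26, adjusted p = 0.000865) and by 0.84 ± 0.26 in periodontitis (adjusted p = 0.0282). In periodontitis 4 of 6 fell from 0 d to 7 d (20.7% of all genes) and 0 rose (18.3%), the 4 being Acan, Sox9, Comp and Cnmd. Summed over the 8, they were at 55.1 to 107 CPM in control 0 d, where Col2a1 was highest, at 69.5 to 124 CPM in periodontitis 0 d and at 49.1 to 64.1 CPM in control 3 d. Acan, the aggrecan gene, was at 49.6, 47.4 and 28.1 CPM in control 0 d, at 21.4, 26.7 and 28.3 CPM in control 3 d and at most at 68.8 CPM in any library. Matn1 and Snorc, which are specific to cartilage, were at most at 0.188 and 0.265 CPM, at or near 0 in all 18 libraries. Ameloblast and odontoblast markers were higher in control 0 d than in periodontitis 0 d, by the values given above, and their part in the Col2a1 difference was not tested. Dspp, the dentine gene of that list, was at 589, 9.14 and 8.18 CPM in the 3 control 0 d libraries. The summed list lay between 17.3 and 652 CPM there and between 1.202 and 6.37 CPM in periodontitis 0 d.

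Type IX collagen, a FACIT trimer that coats type II fibrils in cartilage, is built from Col9a1, Col9a2 and Col9a3, and these 3 genes moved separately. Col9a1 was at 0.331, 0.454 and 0.244 CPM in control 0 d, which are 5, 7 and 4 counts, and at 1.98, 1.04 and 3.01 CPM in periodontitis 0 d, 33, 15 and 51 counts. The arms did not overlap, and Col9a1 was higher in periodontitis by 2.54 ± 0.43 (adjusted p = 0.00564). The call held without any 1 library and was lost without the libraries with Vip above 100 CPM (1.62, adjusted p = 0.352), with ganglion neuron markers as a covariate (2.47, adjusted p = 0.0521) and in a fit of the 2 groups alone (2.59, adjusted p = 0.0853).

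In control, Col9a1 rose by 2.59 ± 0.43 to 2.06, 1.75 and 2.48 CPM at 3 d (adjusted p = 0.000275) and was at 3.27, 2.39 and 1.82 CPM at 7 d, a rise of 2.84 ± 0.43 from 0 d (adjusted p = 8.25e-05). In periodontitis it rose by 1.19 ± 0.37 to 3.14, 5.51 and 5.15 CPM at 3 d (adjusted p = 0.0322) and was at 1.81, 2.66 and 1.88 CPM at 7 d. The 0 d libraries of control were below all other libraries of both arms. Both rises in control held under every alternative tried.

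Col9a2 followed another course. It was at 9.53, 3.24 and 3.78 CPM in control 0 d, 10.47, 8.34 and 6.64 at 3 d and 31.1, 20.7 and 14.7 CPM at 7 d, a rise of 2.01 ± 0.43 from 0 d to 7 d (adjusted p = 0.00148). In periodontitis it stayed between 2.86 and 8.11 CPM on all days. All control 7 d libraries were above all others, and at 7 d the difference between arms was -2.20 ± 0.43 and missed the threshold in the main test (adjusted p = 0.130). The interaction from 0 d to 7 d was -2.28 ± 0.60 (adjusted p = 0.115). Col9a3 lay between 0.931 and 3.18 CPM and fell from 0 d to 3 d in periodontitis (-1.01 ± 0.32, adjusted p = 0.0316). Of its exonic bases 6.07% are shared with Tcfl5 on the other strand, so its few counts are uncertain. Col10a1, the collagen of hypertrophic cartilage, lay between 0.649 and 3.55 CPM and was never called.

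**Figure D5:**
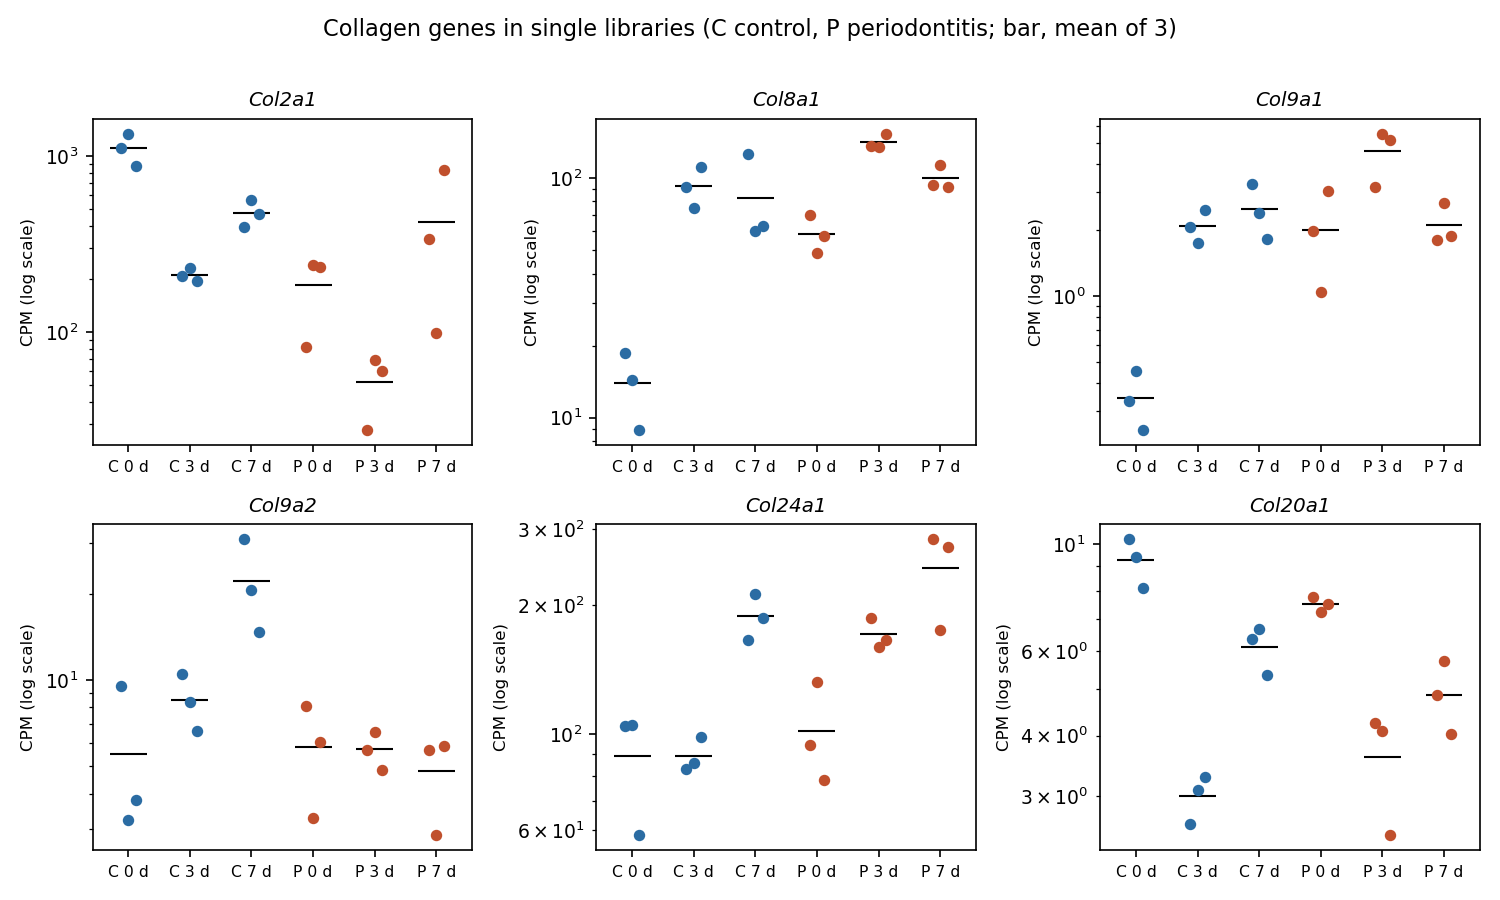
CPM (log scale) of 6 collagens in the 18 libraries, by group (C control, P periodontitis), with a bar at the mean of 3. Control 0 d stands apart for Col2a1 (highest) and for Col8a1 and Col9a1 (lowest), and control 7 d is highest for Col9a2.

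Col24a1 and Col27a1 are later additions to the fibrillar class, the first known from bone and the second from cartilage. Col24a1 was at 105, 105 and 58.3 CPM in control 0 d, 83.2, 85.8 and 98.8 at 3 d, and 166, 212 and 187 CPM at 7 d. In periodontitis it was at 94.6, 133 and 78.4 CPM at 0 d, 187, 160 and 166 at 3 d, and 285, 175 and 272 CPM at 7 d. It rose from 0 d to 7 d in both arms, by 1.075 ± 0.23 in control (adjusted p = 0.00166) and 1.26 ± 0.23 in periodontitis (adjusted p = 0.000763). The rise from 3 d to 7 d was called in control (1.07 ± 0.23, adjusted p = 0.0115), and that from 0 d to 3 d in periodontitis (0.75 ± 0.23, adjusted p = 0.0315). With each library left out in turn, the former held in 16 and the latter in 13 of 18 fits. The difference between the arms in the step from 0 d to 3 d was not called (interaction 0.75 ± 0.33, adjusted p = 0.391). At 3 d every periodontitis library was above every control library, with a difference of 0.94 ± 0.23 that missed the threshold (adjusted p = 0.135). Col27a1 lay between 132 and 306 CPM and was never called.

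Type VIII collagen is a short-chain network collagen of vessel walls and of the membrane behind the cornea, built from Col8a1 and Col8a2. Both chains rose from 0 d to 3 d in both arms, while Col8a1 alone was also called between arms. In periodontitis both calls were lost without the libraries with Vip above 100 CPM, which leaves 1 library in each group compared. With muscle markers as a covariate 1 collagen was called higher there, so both rises did not hold. As partners called together in the rises of the main test, Col8a1 and Col8a2 have the 250 bases before the start site of each gene shown. The bases are from RefSeq on GRCm38.p6, 5′ to 3′ on the strand of the gene. Col8a1 is on the minus strand (chr16:57754738-57754987) and Col8a2 on the plus strand (chr4:126286544-126286793). Capitals mark the GC-rich hexamer GGGCGG, read on either strand and so also written CCGCCC.
Col8a1: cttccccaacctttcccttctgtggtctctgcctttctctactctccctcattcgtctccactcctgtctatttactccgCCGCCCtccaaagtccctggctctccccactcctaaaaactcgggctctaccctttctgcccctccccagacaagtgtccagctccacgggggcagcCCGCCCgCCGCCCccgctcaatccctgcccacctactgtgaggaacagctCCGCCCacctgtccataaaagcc
Col8a2: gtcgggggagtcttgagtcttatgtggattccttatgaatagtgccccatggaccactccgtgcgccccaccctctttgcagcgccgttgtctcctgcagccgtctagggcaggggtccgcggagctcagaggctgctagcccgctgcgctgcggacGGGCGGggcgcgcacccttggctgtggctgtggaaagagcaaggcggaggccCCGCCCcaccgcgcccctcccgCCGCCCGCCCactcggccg

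Each of these windows holds GGGCGG 4 times, 2 of the copies in Col8a2 overlapping, and neither holds TATAAA or CCAAT on either strand. Among 32851 such windows of mouse genes, with chromosome 18 left out, GGGCGG was found in 32.7%, CCAAT in 33.8% and TATAAA in 12.4%. Windows were at hand for 35 of the 44 collagens, and of their 38 windows 22 held GGGCGG, 13 CCAAT and 5 TATAAA. These matches describe the letters only.

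Col8a1 was at 18.6, 14.3 and 8.85 CPM in control 0 d and at 70.0, 48.5 and 57.5 CPM in periodontitis 0 d. The arms did not overlap, and Col8a1 was 4.22-fold higher in periodontitis (2.08 ± 0.29, adjusted p = 0.00298), the smallest adjusted p of a collagen between arms on a day. The call held without any 1 library and with ganglion neuron markers as a covariate (2.17, adjusted p = 0.0135). Without the libraries with Vip above 100 CPM the difference was 1.83 (adjusted p = 0.0868).

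In control, Col8a1 rose 6.67-fold to 91.7, 75.4 and 111 CPM at 3 d (2.74 ± 0.29, adjusted p = 6.68e-06) and was at 126, 60.1 and 63.2 CPM at 7 d, a rise of 2.58 ± 0.29 from 0 d (adjusted p = 5.91e-06). In periodontitis it rose 2.41-fold to 136, 135 and 153 CPM at 3 d (1.27 ± 0.27, adjusted p = 0.00385) and was at 93.6, 113 and 92.4 CPM at 7 d, a rise of 0.77 ± 0.27 from 0 d (adjusted p = 0.0353). Control 0 d was thus below every other group, and the 3 d libraries of periodontitis were above all others. The interaction was -1.47 ± 0.39 from 0 d to 3 d (adjusted p = 0.228) and -1.81 ± 0.39 from 0 d to 7 d (adjusted p = 0.0939), so the change was not shown to differ between arms.

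Col8a2, the partner chain, was at 47.9, 47.8 and 22.9 CPM in control 0 d and rose to 101, 93.0 and 137 CPM at 3 d (1.48 ± 0.27, adjusted p = 0.000591). In periodontitis it rose from 64.7, 81.9 and 61.7 to 127, 122 and 128 CPM (0.86 ± 0.27, adjusted p = 0.0305), a call kept in 13 of 18 fits that each left out 1 library. The arms did not overlap at 0 d, where the difference between them was not called (0.81 ± 0.27, adjusted p = 0.0688). At 7 d Col8a2 was at 95.2, 65.6 and 55.4 CPM in control, above 0 d (0.87 ± 0.27, adjusted p = 0.0165), and at 94.0, 61.9 and 102 CPM in periodontitis, where it was not called against 0 d (0.31 ± 0.26, adjusted p = 0.364). Counts of Col8a1 per count of Col8a2 were 0.358 ± 0.0505 in control 0 d and 0.844 ± 0.0535, 1.13 ± 0.204, 0.868 ± 0.251, 1.13 ± 0.0673 and 1.24 ± 0.512 in control 3 d and 7 d and in periodontitis 0 d, 3 d and 7 d. Endothelial markers, summed, lay between 367 and 749 CPM over the 18 libraries, and 0 of 5 were called in either arm from 0 d to 3 d (34.7% of all genes in control, 21.2% in periodontitis). In control Cdh5 and Pecam1, both endothelial adhesion genes, fell from 0 d to 7 d by 0.98 ± 0.26 (adjusted p = 0.00717) and 0.59 ± 0.22 (adjusted p = 0.0415), and 0 rose (21.4% and 20% of all genes).

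Type IV collagen forms the network of basement membranes, with Col4a1 and Col4a2 as its common chains. They lie head to head on chromosome 8 and share 22 exonic bases. Col4a1 was at 358 to 1389 CPM and Col4a2 at 235 to 886 CPM, and neither was called in any comparison. Both were above control in all 3 periodontitis libraries of 0 d, with differences of 0.61 ± 0.32 (adjusted p = 0.231) and 0.52 ± 0.33 (adjusted p = 0.346). Their ratio in counts stayed between 1.36 and 1.80 over all libraries.

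The tissue-restricted type IV chains were low. Col4a5 was at 1.72, 0.778 and 0.671 CPM in control 0 d and at 9.98, 1.39 and 3.95 CPM in periodontitis 0 d, where it was called higher (2.27 ± 0.59, adjusted p = 0.0330) although the arms overlap. Its highest values were in the libraries with ganglion neuron markers. The difference was 1.36 without periodontitis 0 d replicate 1 (adjusted p = 0.206) and 0.42 without the libraries with Vip above 100 CPM (adjusted p = 0.885). In periodontitis Col4a5 fell by 3.20 ± 0.63 from 0 d to 7 d (adjusted p = 0.00113), to 0.760, 0.325 and 0.553 CPM. With ganglion neuron markers as a covariate, or without the libraries with Vip above 100 CPM, that call was lost. Col4a4 (0.513 to 3.43 CPM) and Col4a3 (0.124 to 0.902 CPM) were never called, and 5.65% of the exonic bases of Col4a3 are shared with an antisense gene.

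Type VI collagen forms beaded filaments around cells from Col6a1, Col6a2 and the third chain. Col6a1 and Col6a2 moved together: their ratio in counts stayed between 1.12 and 1.21 in all 18 libraries, while Col6a1 itself ran from 688 to 2360 CPM. Col6a3 to Col6a1 was 1.57 ± 0.318 in control 0 d and between 0.929 and 1.13 as a mean in the other groups. Col6a3 fell by 0.72 ± 0.24 from 0 d to 7 d in periodontitis (adjusted p = 0.0286), from 1860 ± 304 to 1127 ± 259 CPM. The fall was not called without periodontitis 0 d replicate 2, 7 d replicate 1 or 7 d replicate 2. The chains that can replace Col6a3 were low, Col6a4 at 0.342 to 2.77 CPM, Col6a5 at 3.52 to 10.9 CPM and Col6a6 at 0.0570 to 3.07 CPM. Col6a6 was highest in periodontitis 0 d replicates 1 and 3 and in control 3 d replicate 2, all with ganglion neuron markers, and fell from 0 d to 7 d in periodontitis (-3.13 ± 0.95, adjusted p = 0.0169). That call was lost without periodontitis 0 d replicate 1 and with ganglion neuron markers as a covariate.

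Col12a1 is a FACIT chain of type I fibrils known from ligament and bone surfaces. It rose in control from 1060 ± 322 CPM at 0 d to 2318 ± 471 CPM at 3 d (1.13 ± 0.34, adjusted p = 0.0163; lost without control 0 d replicate 3 or 3 d replicate 1) and was at 3557, 1386 and 1137 CPM at 7 d. In periodontitis it was at 1607, 2040 and 1658 CPM at 0 d and 3001, 2695 and 3106 CPM at 3 d, a change that was not called (0.73 ± 0.33, adjusted p = 0.138). Control 7 d replicate 1 was above every other library. Col16a1, known from fibril surfaces in skin and cartilage, lay between 450 and 1816 CPM and was never called. Col22a1, known from tissue junctions such as that of muscle and tendon, fell in control from 341 ± 64.3 to 203 ± 29.1 CPM at 3 d (-0.75 ± 0.28, adjusted p = 0.0493), a call kept in 2 of 18 fits that each left out 1 library. At 3 d it was at 412, 309 and 362 CPM in periodontitis, above all 3 control libraries, and not called between arms (0.83 ± 0.28, adjusted p = 0.321).

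Col14a1, a FACIT chain of dense connective tissue, was at 8.54, 7.26 and 7.93 CPM in control 0 d and at 51.7, 11.5 and 18.5 CPM in periodontitis 0 d (1.79 ± 0.48, adjusted p = 0.0359). The value of 51.7 CPM came from replicate 1, the library with the most Vip. The difference was 0.95 without that library (adjusted p = 0.236), 0.88 with ganglion neuron markers as a covariate (adjusted p = 0.479) and 0.57 without the libraries with Vip above 100 CPM (adjusted p = 0.762). From 0 d to 7 d in periodontitis Col14a1 fell by 1.84 ± 0.48 (adjusted p = 0.00756), a call lost without replicate 1 of 0 d. Schwann cell markers, summed, were at 992 CPM in that library and at most at 492 CPM elsewhere, and their part in these results was not tested.

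Col20a1, a FACIT-like gene, fell after extraction in both arms. It was at 10.3, 9.40 and 8.12 CPM in control 0 d and 2.62, 3.08 and 3.29 CPM at 3 d (-1.63 ± 0.22, adjusted p = 5.76e-05), a call that held under every alternative. In periodontitis it went from 7.75, 7.24 and 7.49 to 4.25, 4.09 and 2.48 CPM (-1.05 ± 0.22, adjusted p = 0.00307). That call was lost without the libraries with Vip above 100 CPM. In control Col20a1 then rose to 6.35, 6.66 and 5.36 CPM at 7 d (1.03 ± 0.22, adjusted p = 0.0106), and in periodontitis it was at 4.85, 5.71 and 4.04 CPM. Within each arm the 3 d libraries did not overlap those of 0 d.

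The collagens that anchor epithelium were low. Col7a1, of the anchoring fibrils under epithelium, was at 10.4 to 40.0 CPM in 17 libraries and at 103 CPM in control 7 d replicate 1. Col17a1, a transmembrane collagen of hemidesmosomes, fell in periodontitis from 3.85, 5.78 and 3.72 CPM at 0 d to 0.702, 1.56 and 0.277 CPM at 7 d (-2.40 ± 0.65, adjusted p = 0.00942). Its highest value, 10.4 CPM, was in control 3 d replicate 2. In the same comparison 0 of 6 basal epithelium markers rose and 3 fell (18.3% and 20.7% of all genes), and their summed level went from 140 to 304 CPM at 0 d to 111 to 116 CPM at 7 d. Their part in the fall of Col17a1 was not tested. With ganglion neuron or muscle markers as a covariate the fall was not called.

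Of the other transmembrane collagens, Col13a1, known from adhesion sites and the nerve-muscle junction, rose from 0 d to 7 d in periodontitis (0.92 ± 0.28, adjusted p = 0.0178), from 159 ± 33.6 to 300 ± 124 CPM, with overlap, a call kept in 14 of 18 fits that each left out 1 library. Col23a1 rose in control from 9.33, 9.14 and 8.79 CPM at 0 d to 19.8, 19.3 and 16.1 CPM at 3 d (1.02 ± 0.33, adjusted p = 0.0250), kept in 13 of 18 such fits. Col25a1, known in mice for the innervation of muscle by motor neurons, was at 29.9, 27.9 and 15.2 CPM in control 0 d and 9.26, 16.3 and 9.38 CPM in periodontitis 0 d. It was called lower in periodontitis (-1.06 ± 0.31, adjusted p = 0.0479), with overlap, a call kept in 4 of 18 fits that each left out 1 library and lost without the libraries with Vip above 100 CPM (-0.55, adjusted p = 0.723). In control it fell from 0 d to 3 d (-0.93 ± 0.31, adjusted p = 0.0301), and in periodontitis it rose from 0 d to 7 d (1.18 ± 0.31, adjusted p = 0.00874).

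Col15a1 and Col18a1 encode basement membrane collagens with sugar chains, and Col18a1 is the source of the fragment endostatin. Col18a1 rose in control from 205 ± 25.6 to 466 ± 50.1 CPM at 3 d (1.19 ± 0.35, adjusted p = 0.0155), a call lost without control 0 d replicate 3. In periodontitis it was at 420, 342 and 266 CPM at 0 d and 497, 409 and 453 CPM at 3 d and was not called. Col15a1 lay between 114 and 432 CPM and was never called. Col26a1, of which little is known, was highest in periodontitis 0 d replicates 1 and 3, at 3.67 and 2.89 CPM, and fell, with overlap, to 0.409, 0.519 and 1.11 CPM at 7 d (-1.86 ± 0.65, adjusted p = 0.0337). With ganglion neuron markers as a covariate that change was 0.11 (adjusted p = 0.927). Col28a1, known from peripheral nerve, lay between 6.04 and 30.7 CPM and was never called, with its highest value in periodontitis 0 d replicate 1.

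Of 31 genes that modify, process and cross-link collagen, 12 rose and 2 fell from 0 d to 3 d in control (16.4% and 18.3% of all genes), with a median of 0.47 (0.03 over all genes). Between 0 d and 7 d in control, 11 rose and 2 fell (20% and 21.4% of all genes), with a median of 0.36. Serpinh1, the collagen chaperone of the endoplasmic reticulum, rose by 1.01 ± 0.21 at 3 d (adjusted p = 0.00136), and Colgalt2, which adds galactose to collagen, by 1.19 ± 0.20 (adjusted p = 0.000363). Plod2, which hydroxylates lysine at the ends of the chains, fell by 1.19 ± 0.17 (adjusted p = 8.34e-05). In control 4 rose and 1 fell from 3 d to 7 d (4.99% and 5.87% of all genes). In periodontitis 6 rose and 2 fell from 0 d to 3 d (9.02% and 12.2% of all genes). From 3 d to 7 d there 0 rose and 0 fell (2.17% and 2.63%), and from 0 d to 7 d 4 rose and 3 fell (18.3% and 20.7%), with a median of -0.06.

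Between arms, 3 of the 31 were higher in periodontitis at 0 d and 0 lower (4.81% and 3.47% of all genes). At 3 d and 7 d 0 were called, where 0.134% and 0% of all genes were. Pcolce2, which enhances the removal of the C-propeptide, was at 3.24, 4.21 and 3.23 CPM in control and 11.8, 7.31 and 15.3 CPM in periodontitis (1.69 ± 0.26, adjusted p = 0.00414). Tll1, a protease of the family that removes it, was higher by 1.66 ± 0.34 (adjusted p = 0.0126), and Colgalt2 by 1.09 ± 0.20 (adjusted p = 0.00874). For each of these 3 genes the control libraries of 0 d were below all 3 periodontitis libraries.

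Of 11 tested proteoglycans and glycoproteins that bind collagen fibrils, 4 rose and 1 fell from 0 d to 7 d in each arm (20% and 21.4% of all genes in control, 18.3% and 20.7% in periodontitis). The 4 were Dcn, Lum, Ogn and Omd in both. Ogn, osteoglycin, rose by 1.96 ± 0.28 in control (adjusted p = 5.56e-05) and 1.89 ± 0.28 in periodontitis (adjusted p = 0.000121). The 1 that fell, Tnxb, a tenascin, was highest in periodontitis 0 d replicate 1. Between arms 0 of 11 were called at 0 d, 3 d or 7 d (8.27%, 0.134% and 0% of all genes). Of 10 collagen receptors, 3 rose and 2 fell from 0 d to 7 d in each arm (20% and 21.4% of all genes in control, 18.3% and 20.7% in periodontitis). At 0 d 1 was called between arms (8.27% of all genes): Itga1, an integrin chain, was higher in periodontitis (0.52 ± 0.14, adjusted p = 0.0393). Ddr2, a receptor kinase for fibrillar collagen, rose from 0 d to 7 d by 0.59 ± 0.15 in control (adjusted p = 0.00613) and 0.91 ± 0.15 in periodontitis (adjusted p = 0.000372). Itga11, an integrin chain of fibroblasts, fell by 0.98 ± 0.25 in control (adjusted p = 0.00491) and by 0.98 ± 0.25 in periodontitis (adjusted p = 0.00669). Gp6, the collagen receptor of platelets, fell from 7.21, 13.6 and 18.6 CPM to 0.616, 1.88 and 1.48 CPM in control and from 3.61, 6.47 and 5.13 CPM to 0.117, 0 and 1.11 CPM in periodontitis. It was also lower in both arms at 3 d than at 0 d and lower in periodontitis over the mean of days.

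Of 6 genes of collagen-degrading enzymes, 3 rose and 1 fell from 0 d to 3 d in control (16.4% and 18.3% of all genes). Ctsk, the collagenase of osteoclasts, rose by 1.26 ± 0.21 (adjusted p = 0.000240), Mmp14, a membrane-bound collagenase, by 1.07 ± 0.27 (adjusted p = 0.00604) and Mmp9, a gelatinase, by 0.97 ± 0.30 (adjusted p = 0.0185). Mmp8, the collagenase of neutrophils, fell by 1.96 ± 0.57 (adjusted p = 0.0143). In periodontitis 0 rose and Mmp8 fell from 0 d to 3 d (-2.70 ± 0.59, adjusted p = 0.00441; 9.02% and 12.2% of all genes). Between arms 0 of 6 were called at 0 d, 3 d or 7 d (8.27%, 0.134% and 0% of all genes).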

How the data were processed

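Raw counts of reads per gene were deposited by the authors in 1 table with symbols, biotypes, lengths and coordinates, and each of its 18 count columns matched 1 sample title. HISAT2, SAMtools, StringTie and the build mm9 are named per the submitters' processing notes, while versions, the counting program and the strand setting were not found in the sources used. The coordinates equal GRCm38 (GENCODE M21) for 98.3% of shared identifiers and for all 44 collagens, so GRCm38 is given. Reads of overlapping genes cannot be told apart, and 13 collagens share exonic bases with another gene. RNA was prepared by TRIzol and sequenced from NEBNext Ultra libraries, per the labels' protocols.

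Genes kept by filterByExpr were scaled by TMM and fitted with 1 mean per group over 18 libraries by glmQLFit and glmQLFTest of edgeR 4.0.16 under R 4.3.3. P-values of each of 12 comparisons were adjusted by Benjamini-Hochberg over 18697 genes and called under 0.05, with SEs from the F statistics. The scripts were checked on simulated counts. Levels per length use the deposited lengths, which equal the M21 exon union for 42 of 44 collagens. The rule for names was every collagen, with values per library for those the text turns on or that were called between arms, and up to 4 members per list and comparison by p. Some of these are left out for length. Members, lists and tests were chosen with earlier results of these data known. Within groups the lowest chi-square per gene between 2 libraries was 9.29, so none was taken for a copy. Alternatives were RLE size factors, library totals, TMM without collagens, other filters, a replicate block, muscle or ganglion markers as a covariate, the compared groups alone, DESeq2 1.42.0, and leaving out each library or the 5 with Vip above 100 CPM.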

Additional observations from a re-analysis of the deposited data

How the results depend on the processing

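Leaving out each library in turn gave 2 to 11 collagens called at 0 d between arms (6 with all; 2 without control 0 d replicate 2 or periodontitis 0 d replicate 1, 11 without control 7 d replicate 1), 0 to 0 at 3 d and at 7 d, and 3 to 9 for the mean of days. In control it gave 6 to 14 from 0 d to 3 d, 0 to 16 from 3 d to 7 d (0 without control 3 d replicate 1 or 7 d replicate 2, 16 without control 7 d replicate 1) and 5 to 11 from 0 d to 7 d. In periodontitis it gave 2 to 10 from 0 d to 3 d (2 without 3 d replicate 3), 0 to 9 from 3 d to 7 d (0 without 3 d replicate 1 or 2) and 6 to 16 from 0 d to 7 d (6 without 0 d replicate 1 or 7 d replicate 1). The interactions gave 0 to 0 from 0 d to 3 d and 0 to 4 from 0 d to 7 d (4 without periodontitis 0 d replicate 2). Apart from control from 0 d to 7 d and the interactions, the highest counts above 0 came without control 7 d replicate 1. Counts over all genes in these fits are not given, so the ranges describe collagens only. Without the 5 libraries with Vip above 100 CPM, the collagen calls at 0 d and for the mean of days were lost. So were those in control from 3 d to 7 d and in periodontitis from 0 d to 3 d and 3 d to 7 d. Most of those in periodontitis from 0 d to 7 d were lost too. This fit leaves 1 library in periodontitis 0 d and 1 in periodontitis 3 d. It also called fewer of all genes in these comparisons, and the loss among collagens was not compared with that. With ganglion markers as a covariate, counts were 1 at 0 d, 0 in periodontitis from 3 d to 7 d and 1 from 0 d to 7 d, where Col26a1 reversed to 0.11. Over all genes the calls went from 1547 to 188, from 897 to 228 and from 7300 to 3771. With muscle markers, counts were 3 for the mean of days and 2, 1 and 6 in periodontitis for 0 d to 3 d, 3 d to 7 d and 0 d to 7 d. Over all genes the calls went from 873 to 407, from 3967 to 1930, from 897 to 580 and from 7300 to 4252. In fits of the compared groups alone, collagen counts were 2 at 0 d and 2 at 3 d (65 and 149 of all genes). They were 17 and 6 in control for 0 d to 3 d and 3 d to 7 d (6212 and 1075 of all genes). In periodontitis from 0 d to 7 d the count was 6 (4724 of all genes). With no low-count filter, collagen counts were 2 at 3 d, 1 at 7 d and 3 for the interaction from 0 d to 7 d (133, 40 and 110 of all genes). DESeq2 called 10, 2 and 1 collagens between arms at 0 d, 3 d and 7 d (2663, 291 and 110 of all genes). It called 8 in control and 7 in periodontitis from 3 d to 7 d (3058 and 2529 of all genes). For the interactions it called 1 and 4 (223 and 712 of all genes). With library totals the collagen count was 5 in periodontitis from 3 d to 7 d (831 of all genes). The cause of these shifts was not tested.

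Library totals moved the median of all genes by 0.12 in control from 0 d to 3 d and 0.14 from 0 d to 7 d. In periodontitis from 0 d to 7 d it moved by 0.13. Collagens called higher and lower in these comparisons were 11 and 3, 11 and 0, and 6 and 7. Over all genes, 6394, 7801 and 7675 were called in either direction. Of 54 calls, 20 held without each library in turn, 12 under all other alternatives and 9 under both, shares not computed over all genes. Of these 9, Col2a1, Col8a1, Col8a2, Col9a1 and Col20a1 were in control from 0 d to 3 d. The others were Col8a1, Col9a1, Col9a2 and Col24a1 in control from 0 d to 7 d. No pairing of libraries by replicate number was seen. Deviations of same-numbered libraries correlated between -0.59 and 0.66, above 0.1 in 10 of 45 pairs, against 20 of 90 for different numbers. With 3 libraries per group these correlations cannot exclude a pairing. With a replicate block the counts were 6, 0 and 0 between arms and 4 for the mean of days (1572, 53, 2 and 883 of all genes). In control they were 9, 3 and 8 (6340, 1918 and 7592 of all genes). In periodontitis they were 7, 3 and 11 (3870, 724 and 7087 of all genes). Both interactions gave 0 (4 and 8 of all genes). The ratio of Col3a1 to Col1a1 was recomputed without each library and without the 5 libraries with Vip above 100 CPM, and no comparison of it was called in either. Below about 1 CPM, counts per library were few, as for Col9a1 in control 0 d.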
